A study of Sus scrofa with 2 samples.

Results

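The genes described here are IL33 (ENSSSCG00000005203) and ENSSSCG00000006286, 2 of the 31908 genes counted in single cells of pig skin, which were followed within endothelial cells and then across the other skin lineages. ENSSSCG00000006286 carries no gene symbol in the deposited gene list and none was paired with it by the symbol tables used here, so it is called by its identifier throughout. Endothelial cells were taken as cells with at least 3 UMIs (unique molecular identifiers, each standing for 1 captured transcript) summed over VWF, CDH5 and MECOM, and are called gated cells. VWF is the von Willebrand factor of blood clotting, CDH5 the cadherin of endothelial junctions and MECOM a transcription factor. The gate held 248 of 2775 cells in the fresh library and 315 of 4223 cells in the cryopreserved library, 563 of 6998 in all. Both genes had been picked for their high levels in endothelial cells or their spread between cells in these same data, so their levels inside the gate against outside are a description with no test.

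IL33 is a cytokine of the interleukin-1 family that is stored in the nucleus of endothelial and epithelial barrier cells and acts as an alarm signal when cells are damaged. Released IL-33 binds the receptor IL1RL1 (ST2) together with the shared subunit IL1RAP on mast cells, innate lymphoid cells and some T cells, and signals through MYD88, IRAK kinases and TRAF6. Endothelium is divided into arterial, capillary, venous and lymphatic cells, and the postcapillary venule, which displays selectins and other adhesion molecules, is the segment where leukocytes leave the blood. In the RefSeq annotation of Sscrofa11.1, the build named for the deposited files, IL33 lies on the minus strand of chromosome 1 from 215899830 to 215941944 and has 8 exons with 1036 exonic bases.

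The samples were 2 libraries of dissociated dorsal skin from healthy male farm pigs, with no transgene or drug. The fresh library was made from cells taken directly after dissociation, and the cryopreserved library from cells frozen in 90% FBS and 10% DMSO and then thawed. Both groups went through the same enzymatic dissociation and removal of dead cells, and whether 1 animal gave both is not stated. Each condition had a single library, so there is no replicate spread and no test was run between conditions. Intervals are exact 95% intervals (Poisson for levels, Clopper-Pearson for shares) and cover counting error only. Levels are CPM, the UMIs of a gene scaled to 1000000 UMIs of the pooled cells. The libraries held 53271738 and 42217632 UMIs, and the median gated cell held 7344.5 (fresh) and 4748 UMIs (cryopreserved). In total 6 barcodes were listed in both libraries, 2 of them on gated cells.

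The gated cells carried blood endothelial markers. All 12 genes of the blood endothelial marker list were higher in gated than in other cells of both libraries, with summed levels of 5416 against 171 CPM (fresh) and 5145 against 150 CPM (cryopreserved). The list includes the 3 gate genes, whose higher level was fixed by the gate. VWF, CDH5 and MECOM made up 723, 318 and 974 CPM of the fresh sum and 797, 310 and 795 CPM of the cryopreserved sum. Lymphatic markers were also present: 46 fresh and 51 cryopreserved gated cells had at least 3 UMIs over PROX1, LYVE1 and FLT4, the master transcription factor, hyaluronan receptor and VEGF-C receptor of lymphatic vessels. Markers of other lineages differed between the libraries. The 8 fibroblast markers summed to 407 CPM in fresh and 9523 CPM in cryopreserved gated cells, against 64001 and 63142 CPM in other cells, and 97.8% of the cryopreserved UMIs lay in the 10% of gated cells with most of them. Mural markers showed the opposite order, with 284 CPM in fresh and 60.6 CPM in cryopreserved gated cells.

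Both genes were strongly enriched in the gate. IL33 had 2082 UMIs in fresh gated cells, a level of 975 CPM (interval 934 to 1018), and 7.23 CPM in the other fresh cells, a 135-fold difference. In the cryopreserved library IL33 stood at 750 CPM (interval 710 to 791) inside and 8.71 CPM outside, an 86.1-fold difference. ENSSSCG00000006286 reached 2913 CPM (interval 2841 to 2986) against 5.54 CPM in the fresh library and 2541 CPM (interval 2467 to 2616) against 10.2 CPM in the cryopreserved library, 526-fold and 249-fold. By this fold ENSSSCG00000006286 ranked 4 and 5 and IL33 ranked 24 and 27 among the 7065 genes with at least 50 UMIs in gated cells, of which 15.3% were at least 2-fold higher in gated cells of each library. The gate held 90.5% and 81.3% of the IL33 UMIs and 97.4% and 92.6% of the ENSSSCG00000006286 UMIs of the fresh and cryopreserved libraries.

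The levels were lower at the edge of the gate than deep inside it. Cells with exactly 3 gate UMIs (18 fresh, 29 cryopreserved) had 514 and 140 CPM of IL33 and 454 and 399 CPM of ENSSSCG00000006286. Cells just outside, with 2 gate UMIs (28 and 45 cells), had 132 and 90.1 CPM of IL33 and 21.1 and 306 CPM of ENSSSCG00000006286, and 39 of the 78 cryopreserved UMIs of the latter lay in 1 cell. Cells with 10 or more gate UMIs (160 and 148 cells) had 1158 and 1005 CPM of IL33 and 3504 and 3366 CPM of ENSSSCG00000006286.

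Within the gate the genes were distributed differently over cells. IL33 was detected in 179 of 248 fresh cells (72.2%, interval 66.2 to 77.7%) and 205 of 315 cryopreserved cells (65.1%, interval 59.5 to 70.3%), with a median of 4 and 2 UMIs and at most 93 and 50 UMIs per cell. ENSSSCG00000006286 was detected in 128 fresh cells (51.6%, interval 45.2 to 58.0%) and 164 cryopreserved cells (52.1%, interval 46.4 to 57.7%), with at most 240 and 137 UMIs per cell. It was close to an all-or-none gene: in the fresh library 120 gated cells had 0 UMIs, 1 cell had exactly 1, and 46 cells with 50 or more UMIs held 71.1% of its UMIs. In the cryopreserved library 151 cells had 0 UMIs, 11 cells had exactly 1, and 28 cells with 50 or more held 44.7%. IL33 had more cells at low counts, with 23 fresh and 36 cryopreserved cells at exactly 1 UMI and 3 cells and 1 cell at 50 or more. Its level was also lower, so these cut-offs do not compare the genes at a like level. The 10% of gated cells with most UMIs held 44.2% and 44.1% of the IL33 UMIs. For ENSSSCG00000006286 they held 50.6% and 49.1%.

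**Figure D1:**
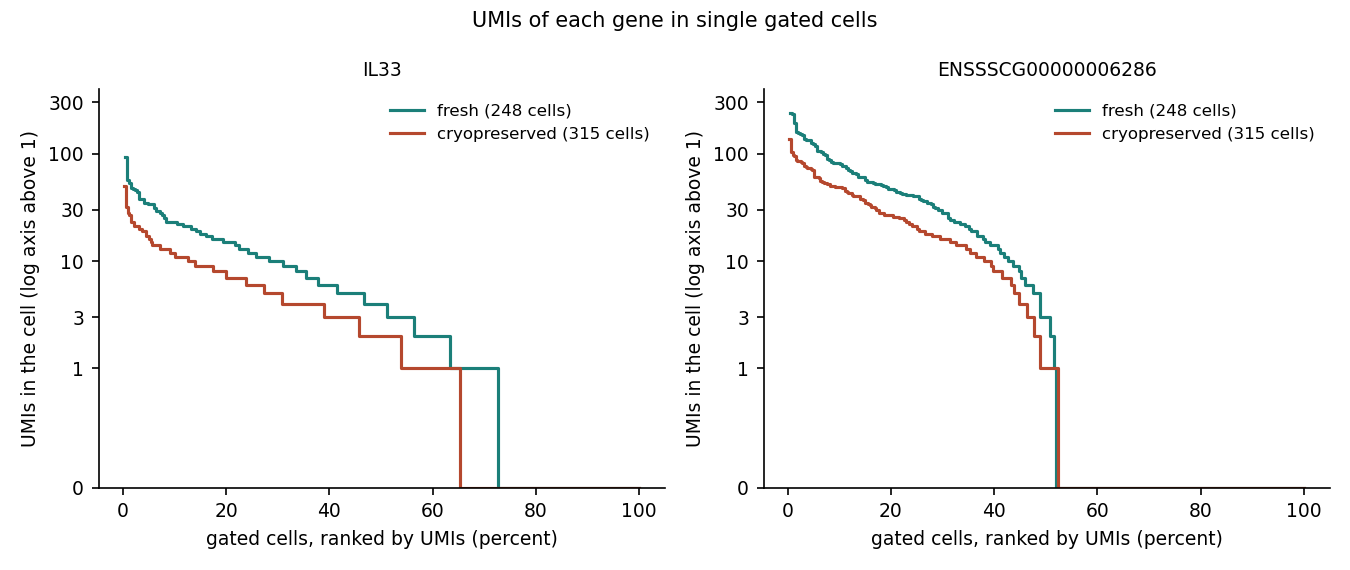
UMIs of IL33 (left) and ENSSSCG00000006286 (right) in single gated cells, ranked from most to fewest UMIs, with the percent of gated cells on the horizontal axis, UMIs per cell on the vertical axis (logarithmic above 1) and 1 line per library. The IL33 lines decline gradually and reach 0 at 72.2% (fresh) and 65.1% (cryopreserved) of cells, whereas the ENSSSCG00000006286 lines stay above 10 UMIs for most positive cells and drop to 0 at 51.6% and 52.1%.

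At equal depth the contrast between the genes narrowed in detection. After each gated cell was thinned to 2000 UMIs, which left out 3 fresh and 19 cryopreserved cells, IL33 was found in 54.7% and 50.3% and ENSSSCG00000006286 in 48.98% and 50.7% of cells. The variance of the thinned UMIs over their mean was 5.24 and 3.76 for IL33 and 12.0 and 12.9 for ENSSSCG00000006286, against medians of 1.32 and 1.29 over all genes with a mean of at least 0.1 UMIs. ENSSSCG00000006286 ranked 12 of 3397 genes in the fresh and 21 of 3449 in the cryopreserved library on this measure, and IL33 ranked 60 and 135.

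The lymphatic cells of the gate carried little of either gene. Gated cells with lymphatic markers had 207 CPM (fresh, interval 166 to 254) and 108 CPM (cryopreserved, interval 74.1 to 153) of IL33, in 28.3% and 21.6% of cells, and a single cell held 35.2% and 40.6% of those UMIs. Fresh cells of this kind had 0 UMIs of ENSSSCG00000006286, which allows a level of up to 7.04 CPM, and cryopreserved ones had 14 UMIs in 2 cells (47.4 CPM). The remaining gated cells (202 and 264) had 1167 and 879 CPM of IL33, in 82.2% and 73.5% of cells, and 3640 and 3042 CPM of ENSSSCG00000006286, in 63.4% and 61.4% of cells. In both libraries the intervals of the lymphatic and non-lymphatic cells lay apart for both genes.

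The genes occurred in the same cells more often than apart. Among fresh gated cells ENSSSCG00000006286 was detected in 67.0% of the 179 cells with IL33 and in 11.6% of the 69 cells without, a difference of 55.4 percentage points. In the cryopreserved library the shares were 68.8% of 205 and 20.9% of 110 cells, a difference of 47.9 points. With lymphatic cells left out the shares were 72.3% against 22.2% (fresh) and 71.6% against 32.9% (cryopreserved), differences of 50.1 and 38.8 points. Over the gated cells Pearson's r between both genes, as log UMIs per 10000, was 0.50 (fresh) and 0.45 (cryopreserved), and 0.39 and 0.35 without lymphatic cells (cells of a library share its depth and free RNA, and are not replicates).

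At full depth few cells held ENSSSCG00000006286 alone. Of non-lymphatic gated cells 59.4% and 52.7% held both genes, 22.8% and 20.8% held IL33 only, 3.96% and 8.71% held ENSSSCG00000006286 only, and 13.9% and 17.8% held neither, fresh and cryopreserved in turn. Cells with ENSSSCG00000006286 only had a median of 4602.5 and 4255 UMIs, against 7354.5 and 5139 UMIs in cells with both. At 2000 UMIs per cell the shares with ENSSSCG00000006286 only were 13.6% and 19.4% and those with IL33 only 16.6% and 17.4%, so at equal depth the cells with 1 gene alone were divided more evenly.

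**Figure D2:**
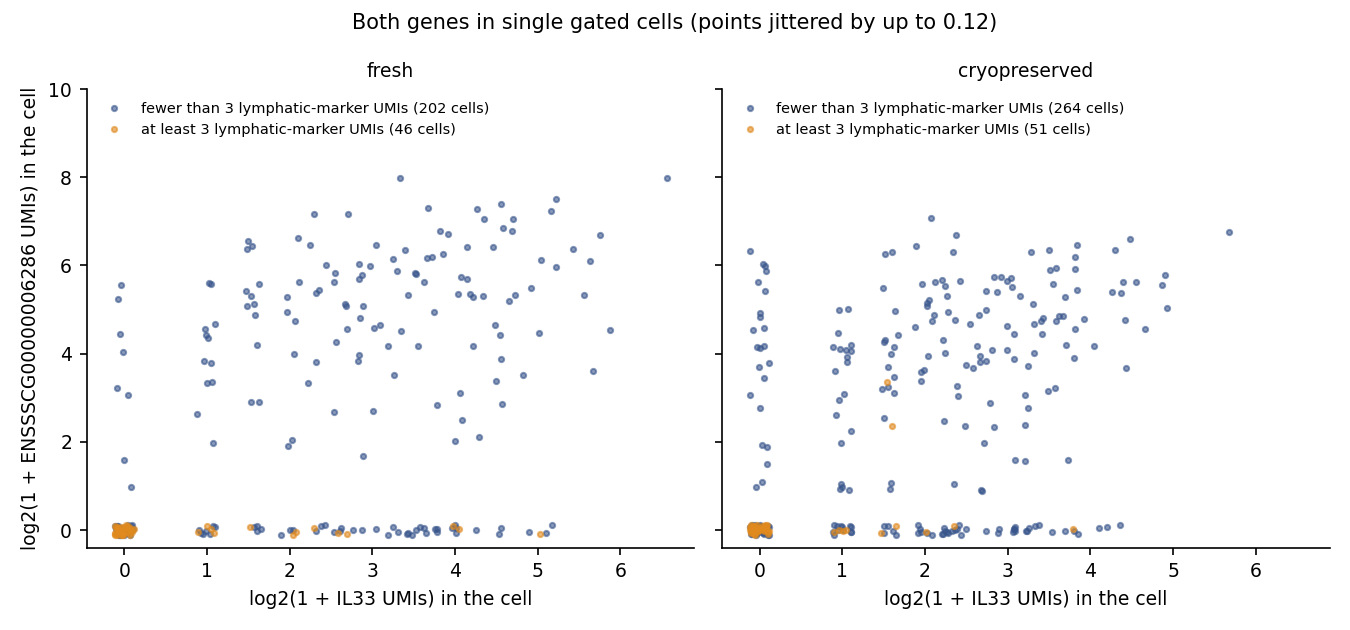
Each point is a gated cell, placed by log2(1 + UMIs) of IL33 (horizontal) and ENSSSCG00000006286 (vertical), with the fresh library left and the cryopreserved library right. Blue cells (202 and 264) had fewer than 3 lymphatic-marker UMIs and orange cells (46 and 51) had at least 3. Orange cells lie on the floor of the vertical axis apart from 2 in the cryopreserved library, and a row of blue cells with many IL33 UMIs lies on the same floor.

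Clustering the gated cells without either gene gave 8 sub-clusters, in which ENSSSCG00000006286 separated the vessel segments more sharply than IL33 did. Sub-cluster 0 (46 fresh and 64 cryopreserved cells) was venous or postcapillary-like on 5 of 8 markers, with SELP (P-selectin), ACKR1 (the atypical chemokine receptor of venules), IL6 and CSF3 among its leading genes. It had 1621 and 1110 CPM of IL33 and 4864 and 5121 CPM of ENSSSCG00000006286, the latter in 93.5% and 92.2% of cells. Sub-cluster 1 (45 and 49 cells), led by NHS and GRM7 and not named, had 1465 and 1503 CPM of IL33 and the highest levels of ENSSSCG00000006286 among the 8, 6780 and 6900 CPM, in 95.6% and 93.9% of cells.

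Sub-cluster 5 (26 and 30 cells) was arterial-like on 6 of 10 markers, with the arterial semaphorin SEMA3G among its leading genes. IL33 was found in most of its cells, with 1217 and 1184 CPM in 84.6% and 76.7% of cells. ENSSSCG00000006286 had 5 UMIs in 1 of 26 fresh cells (23.8 CPM, interval 7.72 to 55.5) and 36 UMIs in 2 of 30 cryopreserved cells (270 CPM), of which 32 lay in 1 cell. The venous-like over arterial-like ratio was 205 (fresh, interval 87.6 to 631) and 18.98 (cryopreserved, interval 13.7 to 27.2) for ENSSSCG00000006286, and 1.33 (interval 1.15 to 1.54) and 0.937 (interval 0.779 to 1.13) for IL33.

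The size of this contrast depended on how the cells were drawn, by alternatives chosen after seeing the data. At a lower clustering resolution, where the arterial-like sub-cluster grew to 54 and 72 cells, the ENSSSCG00000006286 ratio was 3.55 and 3.47. Cells chosen by UMIs of SELP and ACKR1 against UMIs of the whole arterial list, which includes genes found across blood endothelium, gave 3.57 and 4.15, and 2.36 and 1.62 for IL33. ENSSSCG00000006286 was higher on the venous side under each of these choices in both libraries.

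The other sub-clusters covered a wide range of both genes. The capillary-like sub-cluster 3 (30 and 44 cells), named on 3 of 9 markers with none among its 10 leading genes, had 1282 and 1225 CPM of IL33 and 3061 and 2298 CPM of ENSSSCG00000006286. Sub-cluster 4 (35 and 36 cells), led by PIK3R3 and not named, was lower in IL33, 535 and 538 CPM, with 3086 and 2599 CPM of ENSSSCG00000006286. The lymphatic-like sub-cluster 2 (39 and 49 cells) held 6 and 8 UMIs of IL33 (17.9 and 32.0 CPM), and 0 and 5 UMIs of ENSSSCG00000006286, the 5 in 1 cell. Sub-clusters 6, led by keratin genes, and 7, led by collagen genes with macrophage genes, held 42 and 28 cells with markers of other lineages. The naming rule called them keratinocyte (8 of 11 markers) and fibroblast (8 of 8 markers), and these names were not used. PROX1 stood at 995 and 641 CPM in sub-cluster 6, against 889 and 883 CPM in the lymphatic-like sub-cluster 2. KRT5 stood at 2184 and 7108 CPM in sub-cluster 6, against 20.9 and 32.0 CPM in sub-cluster 2. Whether sub-cluster 6 held lymphatic cells or barcodes with RNA of more than 1 cell was not tested. Sub-cluster 6 had 498 and 202 CPM of IL33, where 1 cell held 31 of 85 UMIs (fresh) and 13 of 41 (cryopreserved), and 0 and 138 CPM of ENSSSCG00000006286. Sub-cluster 7 had 562 and 321 CPM of IL33 and 1860 and 1191 CPM of ENSSSCG00000006286. COL1A1 stood at 408 CPM in its 10 fresh cells and 28430 CPM in its 18 cryopreserved cells, so its COL1A1 UMIs came mainly from the latter.

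**Figure D3:**
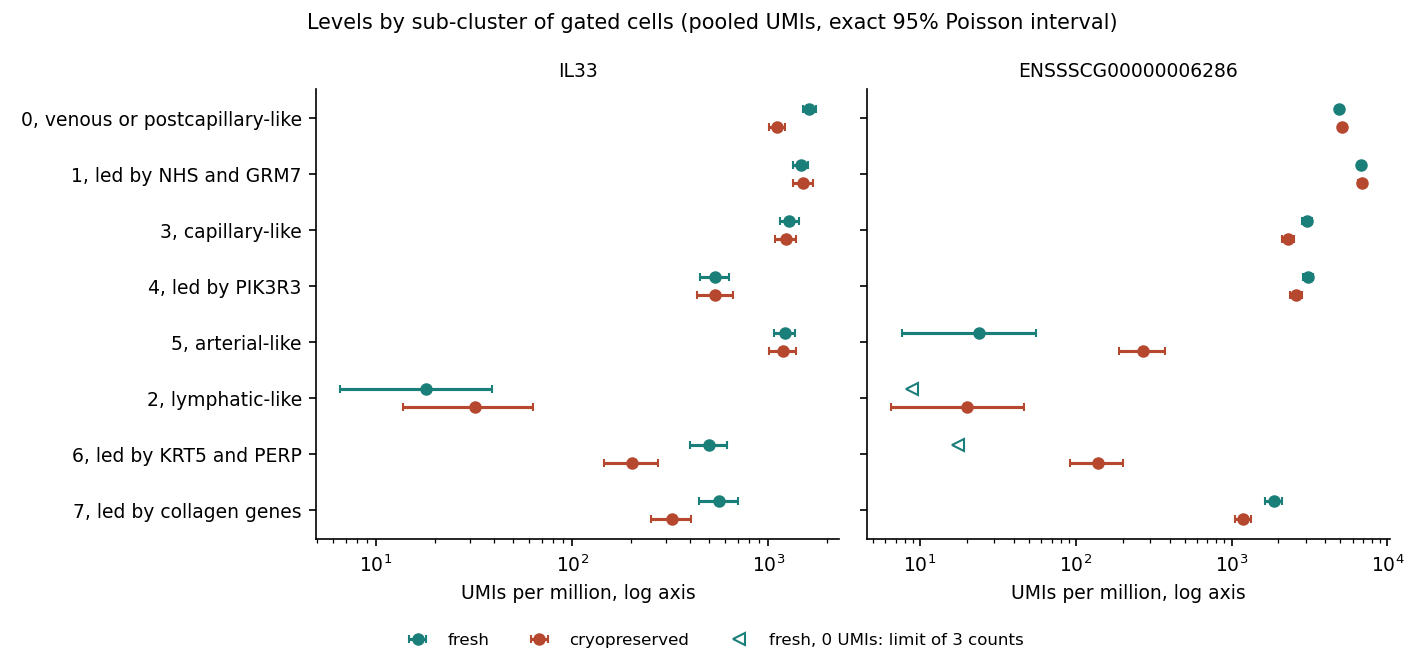
Levels of IL33 (left) and ENSSSCG00000006286 (right) in the 8 sub-clusters of gated cells, as CPM on a logarithmic axis with exact 95% Poisson intervals, in the fresh (green) and cryopreserved (red) libraries; open triangles mark 0 UMIs at the limit of 3 counts. The arterial-like sub-cluster has IL33 at 1217 and 1184 CPM, near the capillary-like one at 1282 and 1225, but ENSSSCG00000006286 at 23.8 and 270 CPM against 3061 and 2298.

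The genes most like each member over gated cells were ranked by the lower of the r values of both libraries, over 5336 genes with a UMI in at least 10% of gated cells of each library. The median r over those genes was -0.01 and -0.02 for IL33 and -0.04 and -0.02 for ENSSSCG00000006286. For IL33 the nearest was RANBP6, a Ran-binding protein gene (r 0.55 fresh, 0.52 cryopreserved). It was followed by ENSSSCG00000035293, the ubiquitin ligase gene MARCHF3, MECOM, which is a gate gene, the phospholipase PLCB1, ENSSSCG00000006286 itself, the secreted protease ADAMTS9, ARID5B, SASH1 and the transcription factor STAT5B, with lower values from 0.51 to 0.42. RANBP6 kept its r when lymphatic cells were left out (0.54 and 0.51), whereas that of MECOM was 0.26 and 0.34. RANBP6 lies on chromosome 1 from 216104432 to 216112218. This is 162487 bases above the higher coordinate of IL33, which is the start of that minus-strand gene. RANBP6 stood at 216 and 127 CPM in gated cells against 18.6 and 17.4 CPM in other cells.

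For ENSSSCG00000006286 the nearest gene was IL6, the inflammatory cytokine (r 0.59 and 0.63). Next came ACKR1 (0.58 and 0.59), the mitochondrial superoxide dismutase SOD2 (0.59 and 0.54) and the leukocyte ligand ICAM1 (0.54 and 0.60). ADAMTS9, the kinase PTK2B, NCOA7, the guanylate cyclase subunit GUCY1A1, the calcitonin-receptor-like gene CALCRL and SASH1 completed the 10, with lower values from 0.53 to 0.49. ADAMTS9 and SASH1 were on both lists. Without lymphatic cells r was 0.52 and 0.58 for IL6 and 0.52 and 0.55 for ACKR1.

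Over whole lineages the order of likeness was different. Across 18 points (9 cell classes in 2 libraries, on log2(CPM + 1)), STC1, RASGRF2, MMRN2, EMCN and RALGAPA2 were closest to IL33 (r 0.92 to 0.96), and FAM167B, SERTM1, NR5A2, the gate gene MECOM and CLEC1A to ENSSSCG00000006286 (r 0.89 to 0.91). These r rest largely on the blood endothelial points, which all of these genes share as their high end. The genes nearest to ENSSSCG00000006286 were at or near 0 in the lymphatic class (0 to 10.0 CPM), whereas those nearest to IL33 had 11.7 to 1208 CPM: EMCN, the sialomucin of capillaries and veins, had 103 and 120 CPM there against 722 and 678 CPM in the blood endothelial class.

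Cells holding both genes were then compared with cells holding IL33 only, among non-lymphatic gated cells read at 2000 UMIs (93 against 33 fresh cells, 100 against 43 cryopreserved cells). A gene was counted when it differed at least 2-fold in the same direction in each library. Of 4668 genes with at least 50 UMIs in these cells, 105 were higher (2.25%) and 177 were lower (3.79%) in cells with both. Cells with both held a median of 6858 UMIs, against 7213 (fresh), and 4769 against 3690 (cryopreserved), with mitochondrial shares of 4.42% against 3.35% and 4.57% against 4.13%.

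Of the 14 NF-kB target genes measured, 7 were higher in cells with both and 0 were lower, where 2.25% and 3.79% of all genes were. The median log2 ratios were 1.39 (fresh) and 0.95 (cryopreserved) against -0.09 and -0.06 over all genes. IL6, SOD2 and ICAM1 among the 7 were also among the genes nearest to ENSSSCG00000006286 over gated cells. The comparison splits the same cells by that gene, so it is no independent result. IL6 stood at 3345 against 37.9 CPM in the fresh library (88.2-fold, interval 50.4 to 171) and 2851 against 221 CPM in the cryopreserved library (12.9-fold, interval 9.60 to 17.8). The neutrophil chemokine CXCL2 stood at 8585 against 2283 CPM and 11262 against 4056 CPM, and the prostaglandin synthase PTGS2 at 846 against 108 CPM and 937 against 54.0 CPM. The granulocyte growth factor CSF3, SOD2, ICAM1 and the adaptor TRAF1 were the other genes counted. NFKBIA, the inhibitor that NF-kB itself induces, was at 4074 against 2033 CPM and 4275 against 3187 CPM, and was under the 2-fold limit in the cryopreserved library.

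Of 7 venous or postcapillary genes 3 were higher and 0 were lower, where 2.25% and 3.79% of all genes in this comparison were. ACKR1 among them was also among the genes nearest to ENSSSCG00000006286 over gated cells. SELP had 747 UMIs (965 CPM) in fresh cells with both and 0 UMIs in fresh cells with IL33 only. This was 102-fold higher against the limit of 3 counts over the group (interval from 82.5). In the cryopreserved library it was at 1067 against 103 CPM (10.4-fold, interval 6.71 to 16.9). ACKR1 stood at 739 against 3.16 CPM (572 UMIs against 1) and 645 against 108 CPM, and the interleukin-1 receptor IL1R1 at 728 against 88.5 CPM and 455 against 167 CPM. VCAM1, another leukocyte ligand, was at 579 against 69.6 CPM in fresh and 269 against 152 CPM in cryopreserved cells and was not counted. Of the 11 leukocyte adhesion genes, which include ACKR1, SELP and ICAM1, 3 were higher and 1, the junctional adhesion molecule JAM3, was lower at 56.8 against 117 CPM and 34.0 against 78.6 CPM. Of 7 capillary genes 0 were counted in either direction, with median log2 ratios of -0.24 and 0.17.

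Some genes of Notch signalling, which specifies arteries, were lower in cells with both. Of 8 Notch and quiescence genes 3 were lower and 0 were higher, where 3.79% and 2.25% of all genes in this comparison were. The ligand DLL4 was at 36.2 against 149 CPM and 28.7 against 103 CPM, the receptor NOTCH4 at 16.8 against 94.9 CPM and 14.3 against 68.7 CPM, and the ligand JAG2 at 15.5 against 66.4 CPM and 30.4 against 103 CPM. The other 5 did not pass the limit in both libraries and included the cell cycle inhibitor CDKN1A at 142 against 114 CPM and 116 against 73.6 CPM, and the ligand JAG1 at 223 against 471 CPM and 263 against 250.4 CPM. Of 4 arterial genes with enough UMIs 1 (DLL4, which is also in the Notch list) was lower and 0 were higher, and EFNB2, the arterial ephrin, was at 178 against 632 CPM and 192 against 329 CPM. SEMA3G had 3 UMIs against 25 and 1 against 9 in these cells, too few to be counted. None of the 11 pan-endothelial transcription factors was counted in either direction, with median log2 ratios of -0.12 and -0.40. In gated against other cells 11 of 11 were at least 2-fold higher in each library, where 15.3% of all 7065 genes were. MECOM among them is a gate gene, whose higher level was fixed by the gate. ERG, for example, was at 1046 against 863 CPM and 777 against 982 CPM, and MECOM at 1259 against 1521 CPM and 1275 against 1061 CPM.

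Markers of other lineages differed between these cells too. The 8 mural markers summed to 23.2 CPM in fresh cells with both against 870 CPM with IL33 only, and to 34.0 against 137 CPM in the cryopreserved library. The 8 fibroblast markers summed to 313 against 471 CPM and 5876 against 368 CPM, and the 9 macrophage markers to 177 against 31.6 CPM and 48.4 against 9.82 CPM. The 11 keratinocyte markers summed to 741 against 825 CPM and 1368 against 3378 CPM, and the 6 mast markers to 431 against 775 CPM and 412 against 795 CPM. Of the 6 mast markers 4 had 0 UMIs in each fresh group. The mast list includes GATA2, which is also in the pan-endothelial list, at 42.6 against 101 CPM and 100 against 133 CPM. The mast sum is thus no clear measure of mast cell RNA. The part of all these markers in the result was not tested.

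**Figure D4:**
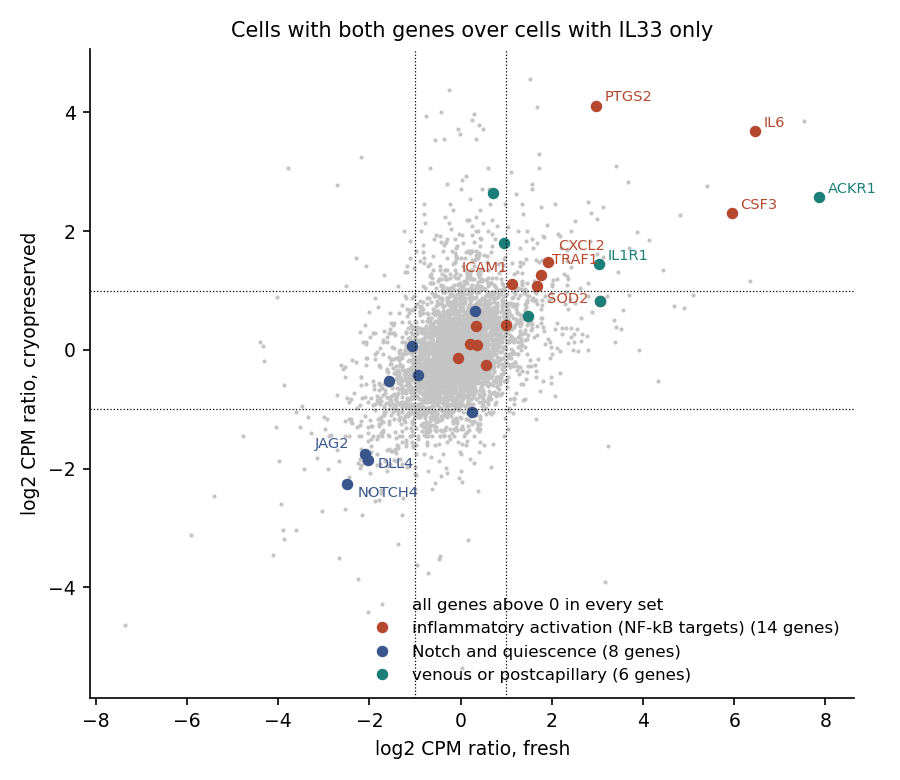
Each point is a gene, placed by its log2 CPM ratio of cells with both genes over cells with IL33 only, in the fresh (horizontal) and the cryopreserved (vertical) library; dotted lines mark a 2-fold difference, and genes with 0 UMIs in any set, SELP among them, are not drawn. IL6, CSF3, PTGS2, ACKR1 and IL1R1 lie at the upper right, and NOTCH4, DLL4 and JAG2 at the lower left.

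The IL-33 receptor gene was nearly absent from the gate. IL1RL1, the receptor, had 0 (fresh) and 1 UMI (cryopreserved) in gated cells. It was highest in a small cluster of 8 fresh and 19 cryopreserved cells that was T or NK-like on 3 of 9 markers and had IL1RL1 and NCR1 among its leading genes, at 451 CPM (interval 289 to 671) and 767 CPM (interval 615 to 946). The whole T or NK-like class, which includes that cluster, had 41.4 and 97.4 CPM. Its cluster led by GNLY had 28.0 and 58.8 CPM and its cluster led by BLK 14.6 and 25.9 CPM. Mast-like cells had 45.1 and 47.6 CPM, and fibroblast-like cells 1.06 and 0.832 CPM. IL1RAP, the shared subunit, was more widespread, with 201 and 177 CPM in keratinocyte-like, 196 and 141 CPM in dendritic or Langerhans-like and 38.1 and 31.3 CPM in blood endothelial-like cells. Of 7 genes of the IL-33 receptor and signalling list with enough UMIs in gated cells 2 were at least 2-fold higher there in each library. Over all 7065 genes this share was 15.3%, so a count of 2 among 7 says little about the list. The genes counted were the adaptor TRAF6 at 67.9 and 56.6 CPM against 27.9 and 26.7 CPM in other cells, and the inhibitory receptor SIGIRR at 32.3 and 39.1 CPM against 1.43 and 2.15 CPM. Of 4 in the comparison of cells with both genes 0 were counted in either direction, with median log2 ratios of -0.39 and -0.34. In the IL-1 family and processing list 1 of 3 genes was higher in cells with both (IL1R1) and 0 were lower, where 2.25% and 3.79% of all genes were.

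Across the whole skin the members were followed over 9 cell classes, clustered without both members and the gate genes. The blood endothelial-like class (202 fresh and 279 cryopreserved cells, 12 of 12 markers) had 1255 and 971 CPM of IL33, in 82.2% and 73.8% of cells, and 4013 and 3474 CPM of ENSSSCG00000006286, in 67.8% and 62.4% of cells. The gate had taken 91.1% and 84.9% of this class and 51.9% and 47.4% of the lymphatic endothelial-like class. Blood endothelial-like cells that the gate missed (18 and 42, with a median of 2783 and 2136 UMIs) had 334 and 531 CPM of IL33 and 2749 and 2730 CPM of ENSSSCG00000006286.

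The lymphatic endothelial-like class (106 and 135 cells) came next for IL33, with 137 CPM (interval 112 to 165) and 65.1 CPM (interval 46.3 to 89.0), in 21.7% and 10.4% of cells. Blood endothelial-like cells were 9.17-fold (interval 7.57 to 11.2) and 14.9-fold (interval 10.8 to 21.1) higher. In the lymphatic class 1 cell held 28.2% and 33.3% of the IL33 UMIs. Among gated cells IL33 stood at 17.9 and 32.0 CPM in the lymphatic-like sub-cluster 2. It stood at 498 and 202 CPM in the keratin-led sub-cluster 6, which also carried PROX1. How far the level of the lymphatic class rested on cells of sub-cluster 6 was not tested. For ENSSSCG00000006286 the lymphatic class held 0 (fresh) and 1 UMI (cryopreserved), so blood endothelial-like cells were at least 1076-fold higher in the former and 2080-fold higher (interval 373 to 82176) in the latter.

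IL33 outside endothelium was low and uneven. The fibroblast-like class had 9.44 and 11.5 CPM, in 9.57% and 9.04% of cells, but its clusters differed: the cluster led by CTHRC1 (276 and 363 cells) had 17.2 CPM (interval 13.6 to 21.5) and 25.8 CPM (interval 21.4 to 30.8), in 21.7% and 22.9% of cells, and the cluster led by MYOC (411 and 667 cells) had 7.37 and 5.98 CPM, in 7.06% and 5.70% of cells. The keratinocyte-like class had 2.47 and 4.16 CPM, and within it the cluster with SOX9 and PTHLH (104 and 250 cells) had 7.50 and 11.3 CPM, in 7.69% and 8% of cells, against 1.09 and 3.51 CPM in the cluster led by MMP3 and KRT15. As measures of free RNA, IL33 was found in 0.962% and 2.78% of dendritic or Langerhans-like cells at medians of 14663 and 9460 UMIs. It was found in 3.45% and 1.98% of T or NK-like cells, at lower medians of 6512 and 4820 UMIs. The CTHRC1-led cluster had medians of 16168.5 and 12768 UMIs and the MYOC-led cluster of 13009 and 10708 UMIs. The intervals of the CTHRC1-led cluster lay above those of the MYOC-led cluster in both libraries. Mural-like cells had 17.2 and 7.06 CPM in 3.61% and 2.41% of cells. The fresh value rests on 34 UMIs in 9 of 249 cells, with 10 and 8 UMIs in the highest cells of its clusters, and 6 fresh mural-like cells were themselves gated. T or NK-like cells had 4.70 CPM (interval 1.53 to 10.97) and 4.43 CPM (interval 1.63 to 9.64). Macrophage-like cells had 5.13 CPM (interval 2.21 to 10.1) and 6.58 CPM (interval 3.68 to 10.8). In both libraries these intervals overlapped those of the MYOC-led cluster and of the cluster with SOX9 and PTHLH. Dendritic or Langerhans-like cells had 0.628 CPM (interval 0.0159 to 3.50) and 7.96 CPM (interval 4.46 to 13.1), with 11 of the 15 cryopreserved UMIs in 1 gated cell. Their fresh interval lay below those of the MYOC-led cluster (5.24 to 10.1) and of the cluster with SOX9 and PTHLH (3.60 to 13.8). Their cryopreserved interval overlapped both. The intervals of the CTHRC1-led cluster lay above those of all these immune classes in both libraries. Whether the IL33 of the MYOC-led cluster and of the cluster with SOX9 and PTHLH was free RNA was not tested. Mast-like cells had 0 UMIs of IL33 in 69 and 83 cells at medians of 2770 and 2403 UMIs, which allows up to 11.3 and 10.99 CPM.

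ENSSSCG00000006286 was near 0 outside blood endothelium and where it was not, single cells carried it. Fibroblast-like cells had 0.598 and 1.09 CPM and mural-like cells 1.52 and 3.03 CPM. In macrophage-like cells all 40 fresh UMIs lay in 1 of 158 cells, and in dendritic or Langerhans-like cells 48 of 49 cryopreserved UMIs lay in 1 of 180 cells. Both of these cells were themselves gated, so they also carried UMIs of VWF, CDH5 or MECOM. In keratinocyte-like cells 39 of 64 cryopreserved UMIs lay in 1 of 1051 cells. Outside the gate and both endothelial clusters the gene was found in 1.10% of 2458 fresh cells, never with more than 1 UMI per cell, and in 0.764% of 3795 cryopreserved cells. Mast-like cells held 0 UMIs in both libraries.

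**Figure D5:**
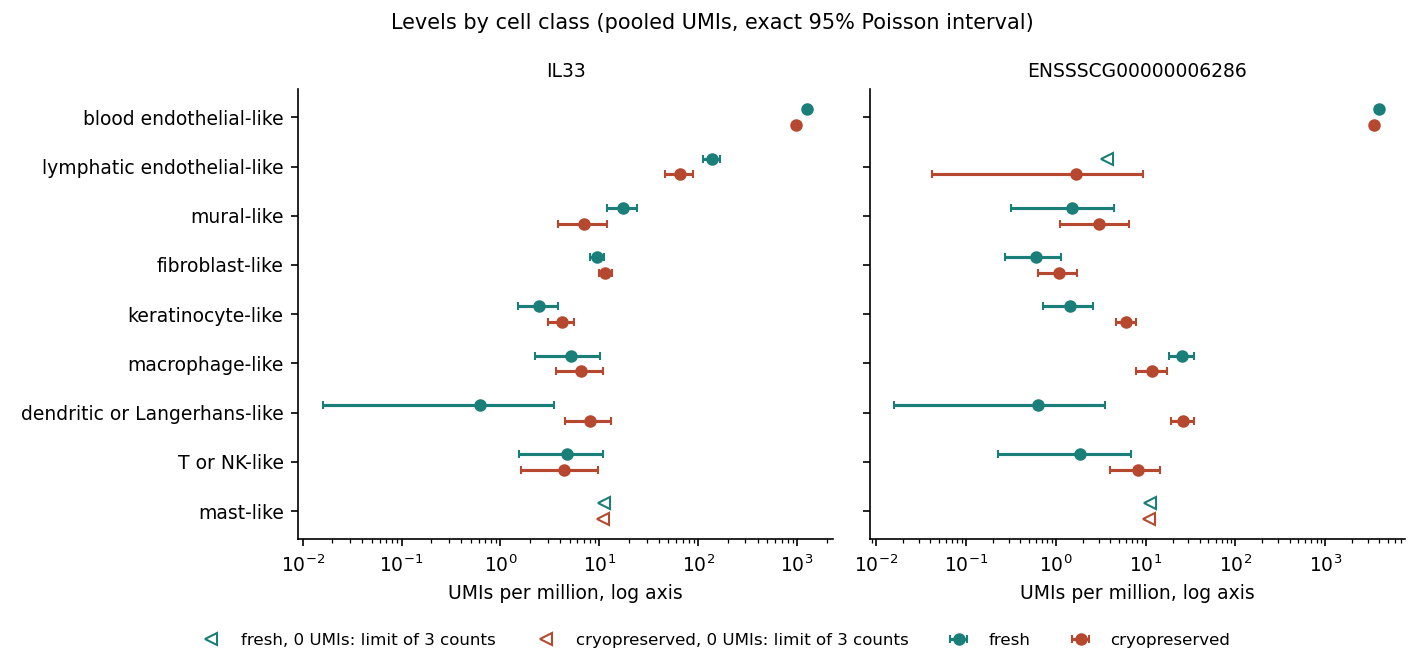
Levels of IL33 (left) and ENSSSCG00000006286 (right) in 9 cell classes, as CPM on a logarithmic axis with exact 95% Poisson intervals, in the fresh (green) and cryopreserved (red) libraries; open triangles mark 0 UMIs at the limit of 3 counts. Blood endothelial-like cells stand at 1255 and 971 CPM of IL33 and 4013 and 3474 CPM of ENSSSCG00000006286. Lymphatic endothelial-like cells are second for IL33, with 28.2% and 33.3% of those UMIs in 1 cell, but at 0 and 1 UMI for ENSSSCG00000006286.

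Between the libraries both genes had a lower level in cryopreserved gated cells. The log2 ratio was -0.38 for IL33 (ratio 0.769, interval 0.717 to 0.824) and -0.20 for ENSSSCG00000006286 (ratio 0.872, interval 0.839 to 0.906), where the median over 7065 genes was -0.04 and the median absolute log2 ratio 0.28. An absolute log2 ratio at least as large was seen for 36.8% and 64.8% of those genes, and neither member was among the 5.14% of genes that differed at least 2-fold (3.69% higher, 1.44% lower in cryopreserved cells). With 1 library per condition this difference cannot be told apart from the difference between any 2 libraries. It changed with the cells taken. Without cells holding at least 10 UMIs each of 2 or more markers of another lineage, which left 208 and 275 cells, the log2 ratio was -0.087 for IL33 and 0.0034 for ENSSSCG00000006286. With all deposited barcodes it was -0.13 and 0.13.

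The difference was not the same in every sub-cluster. For IL33 the ratio was 0.685 (interval 0.606 to 0.773) in the venous or postcapillary-like cells, and in sub-clusters 1, 3, 4 and 5 the interval included 1, with ratios from 0.956 to 1.03. It was 0.406 (interval 0.273 to 0.597) in sub-cluster 6 and 0.572 (interval 0.411 to 0.795) in sub-cluster 7, the sub-clusters with markers of other lineages. For ENSSSCG00000006286 it was 1.05 (interval 0.990 to 1.12) in the venous or postcapillary-like cells, 1.02 in sub-cluster 1, 0.751 (interval 0.667 to 0.844) in the capillary-like cells, 0.842 (interval 0.749 to 0.946) in sub-cluster 4 and 0.641 (interval 0.539 to 0.762) in sub-cluster 7. In sub-cluster 5 it was 11.3 (interval 4.44 to 37.1), with 32 of 36 cryopreserved UMIs in 1 cell. The ratios of sub-cluster 7 compare unlike cells, since COL1A1 stood at 408 CPM in its fresh and 28430 CPM in its cryopreserved cells. With the sub-cluster shares of the fresh library applied to both libraries, an alternative added after seeing the data, the log2 ratio over all gated cells was -0.24 for IL33 and -0.04 for ENSSSCG00000006286.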

How the data were processed

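The authors made 1 library each of fresh and cryopreserved pig skin cells with 10x Genomics 3′ chemistry. They deposited raw UMI counts per gene and barcode, made with Cell Ranger 4.0.0 and STAR 2.5.1b on Sscrofa11.1 per the labels. Dead cells were removed before loading. Cells were kept here with at most 4500 genes, 30000 UMIs and 10% of UMIs on 13 mitochondrial genes. This left 2775 of 4379 fresh and 4223 of 4860 cryopreserved barcodes. Doublets were not called.

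Counts were summed over cells as CPM. Cells were clustered in scanpy 1.11.5 (2000 variable genes, 30 principal components, 20 neighbours, Leiden resolution 0.8; gated cells: 15, 15 and 0.8) without the members. Clusters took the name of the marker list with the largest share of genes raised 2-fold, at least 3, by a rule set after seeing the clusters. The names it gave sub-clusters 6 and 7 of the gated cells were set aside. A count of 0 was taken to allow 3 counts. Gene-wide steps were tested on simulated data, and edgeR 4.0.16 gave TMM factors as an alternative.

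Named genes were the 10 per member most alike over cells, the 5 over classes, the gate genes, the IL-33 receptor genes, SELP and up to 4 members of each list with the highest levels. Other list members, SIGIRR, NCR1 and the genes naming clusters were chosen after their values were seen. SELE is not analysed here. The members and all lists were chosen with earlier results of these data known.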

Additional observations from a re-analysis of the deposited data

Results flagged for a closer look

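In several cell sets a gene was higher in the cryopreserved than in the fresh library, opposite to the gated or blood endothelial-like cells as a whole. These opposite directions were not tested, since each library stands alone, and in each case 1 cell held most of the cryopreserved UMIs. In dendritic or Langerhans-like cells the ratio was 12.7 for IL33 (interval 1.95 to 534, 15 UMIs against 1, 73.3% of the 15 in 1 cell) and 41.4 for ENSSSCG00000006286 (interval 7.10 to 1670, 49 UMIs against 1, 98.0% in 1 cell). That cell was the same for both genes and was the only gated cell of this class in the cryopreserved library. In keratinocyte-like cells the ratio was 4.23 for ENSSSCG00000006286 (64 UMIs against 11, 60.9% in 1 cell). Among gated cells the ENSSSCG00000006286 ratio was 11.3 in the arterial-like sub-cluster 5 (36 UMIs against 5, 88.9% in 1 cell). It was at least 2.23 in the lymphatic-like sub-cluster 2 (5 UMIs against 0, all in 1 cell) and at least 7.86 in the keratin-led sub-cluster 6 (28 UMIs against 0, 64.3% in 1 cell).

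Barcodes that passed the gate but exceeded a maximum on genes, UMIs or mitochondrial share (47 fresh, 17 cryopreserved) lay outside all comparisons and held both genes. IL33 stood at 386 CPM (interval 350 to 425) and 329 CPM (interval 251 to 422), and ENSSSCG00000006286 at 590 CPM (interval 545 to 638) and 404 CPM (interval 318 to 507), in the fresh and cryopreserved libraries. All 4 values lay below those of the kept gated cells.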

How the results depend on the processing

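No paired analysis was possible because each condition had 1 library, and for the same reason no replicate could be left out. Of 124 recomputed values, 84 stayed within the counting interval of the reported value and 38 left it. The other 2 changed sign where the reported interval excluded 0. Among the 38, the cryopreserved venous-like over arterial-like log2 ratio of IL33 also changed sign. It went from -0.093, with an interval that included 0, to 0.69 with cells chosen by marker UMIs. The 2 counted sign changes were both in the cryopreserved over fresh log2 ratio of ENSSSCG00000006286, at 0.13 with all deposited barcodes and 0.0034 without cells carrying markers of another lineage. That ratio was -0.14 with a gate of at least 5 UMIs, -0.26 without lymphatic cells, -0.10 after thinning, -0.092 as the mean of single-cell CPM and -0.040 with fresh sub-cluster shares. The IL33 log2 ratio was -0.28 with a gate of at least 5 UMIs, -0.13 with all barcodes, -0.087 without cells carrying markers of another lineage, -0.24 as the mean of single-cell CPM and -0.24 with fresh sub-cluster shares.

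IL33 detection in cryopreserved gated cells was 59.4% with a gate of at least 2 UMIs and 70.9% with at least 5, where ENSSSCG00000006286 was at 57.9%. With VWF left out of the gate IL33 was in 83.2% and 74.4% and ENSSSCG00000006286 in 60.9% and 60.1% of fresh and cryopreserved cells. Without lymphatic cells the shares were 82.2% and 73.5%, and 63.4% and 61.4%. After thinning IL33 was in 54.7% and 50.3%. The detection difference was 44.1 points in the fresh library without VWF, and 45.1 and 33.1 points after thinning.

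With all deposited barcodes the blood endothelial-like class had 1098 CPM of IL33 (fresh) and 3260 and 3307 CPM of ENSSSCG00000006286. The gate then held 86.4% of the fresh IL33 UMIs and 96.9% and 91.3% of the ENSSSCG00000006286 UMIs. The venous-like over arterial-like log2 ratio of ENSSSCG00000006286 was 7.68 (fresh) and 4.25 (cryopreserved) as reported. It was 1.83 and 1.80 at resolution 0.5, and 1.84 and 2.05 with cells chosen by marker UMIs, where that of IL33 was 1.24 and 0.69. For all of these the cause was not tested. Depth limited the low levels: a level of 0 in mast-like cells allows up to 11.3 CPM.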

Other observations

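In the cluster most enriched in IL1RL1, the IL-33 receptor gene, IL1RAP had 3 UMIs in 8 fresh cells (56.4 CPM, interval 11.6 to 165) and 17 UMIs in 19 cryopreserved cells (150 CPM, interval 87.3 to 240).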
